A study of Capra hircus with 6 samples.

Results

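The elastic fibre genes described here are ELN, FBN1, FBN2, FBLN1, FBLN2, FBLN5, EFEMP1, EFEMP2, MFAP5 and EMILIN1, 10 of the 16262 named genes in the deposited expression tables, taken by their symbols. They were read in 3 libraries of adipose mesenchymal stem cells of the goat (Capra hircus), which are fibroblast-like precursors from fat, overexpressing TAZ, the product of WWTR1 and a coactivator that the Hippo pathway restrains, and in 3 libraries of the same cell type with the wild-type genotype, called control. Both groups carry the label of adipogenic differentiation, so the controls were treated for fat cell formation too. The title of the series also names the cytokine TNF-α, which no sample label mentions. The study asked how TAZ affects fat cell formation in these cells. The sources used here do not give the vector, the promoter that drives TAZ, whether a clone was picked, or the age and number of the donor animals.

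Elastic fibres give skin, vessels, lung and the septa of fat tissue their recoil. They form when tropoelastin, the product of ELN, is laid down on a scaffold of fibrillin microfibrils and crosslinked by lysyl oxidases. Fibulins carry tropoelastin and the lysyl oxidases to the microfibril, and the microfibrils also hold latent TGF-beta and BMP ligands in the matrix, so that the same scaffold serves mechanics and growth factor storage. Fibrillin microfibrils are made by many stromal cells, also where little elastin is present.

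WWTR1, the overexpressed gene, stood at 84.6, 118.1 and 84.2 FPKM (fragments scaled to gene length and library total, the authors' unit) in TAZ replicates 1, 2 and 3, against 30.2, 29.9 and 35.9 FPKM in control replicates 1, 2 and 3, which fits the labels. All 10 stromal markers on a list that includes PDGFRA, THY1 and COL1A1 were above 1 FPKM, with summed levels of 13685 to 15486 FPKM in TAZ libraries and 12211 to 13531 FPKM in control libraries. By the limma test described below for all genes, PDGFRB, LUM, DCN and COL3A1 were higher in TAZ libraries, THY1 and ENG were lower and the other 4 did not pass. That test called 15.7% of all tested genes higher and 22.1% lower. Of the 8 fat cell markers, CIDEC, PNPLA2 and LIPE had a mean above 1 FPKM. LIPE was higher in TAZ libraries (2.13 ± 0.111 against 1.01 ± 0.114 FPKM, SD, n = 3 each, limma adjusted p = 0.000168), and CIDEC and PNPLA2 did not pass. ADIPOQ, the adiponectin gene, had 0.124 ± 0.0296 FPKM in TAZ libraries and 0.119 ± 0.0368 FPKM in control libraries (SD, n = 3 each). The values in both groups therefore describe a culture with stromal markers and little expression of that defining fat cell gene. The libraries held 17035481 to 18852822 fragments. The RNA came from whole cultures, so fewer cells of a type and less RNA per cell cannot be told apart.

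Differences that passed among the 10 genes went in both directions. All 10 passed the filter of at least 1 FPKM in at least 3 libraries, and in a limma test with p-values adjusted over all 10750 genes kept by that filter, 2 were higher in TAZ libraries (FBLN2 and FBN2), 2 were lower (FBLN1 and MFAP5) and 6 did not pass at 0.05. The same test called 37.9% of all tested genes, 15.7% higher and 22.1% lower, so 4 of 10 is a share near the background. TAZ and control libraries were fully apart for FBLN2 and FBN2 (TAZ above) and for FBLN1 (TAZ below), 3 of the 10. Over all tested genes 48.4% were fully apart, 19.7% with TAZ above and 28.7% with TAZ below. The median log2 fold change, TAZ minus control on the log2(FPKM + 1) scale, was -0.18 for the 10 genes and -0.05 for all tested genes. It was below 0 for 8 of the 10 genes, and for 57.1% of all tested genes. Of these 8, EFEMP2 lay at only -8.7e-05 and turned to 0.052 with median-ratio scaling of the libraries. The median absolute log2 fold change of the 10 genes was 0.25, against 0.20 for all tested genes. Summed over the 10 genes, the level was 724, 687 and 723 FPKM in TAZ replicates 1, 2 and 3, against 752, 742 and 767 FPKM in control replicates 1, 2 and 3. Every TAZ sum lay below every control sum, with a ratio of the means of 0.943. The highest TAZ sum, 724 FPKM, was close to the lowest control sum, 742 FPKM. These sums were not recomputed with other scalings of the libraries. Median-ratio scaling moved the log2 fold change of FBN1, the largest part of the sums, from -0.13 to -0.07.

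**Figure D1:**
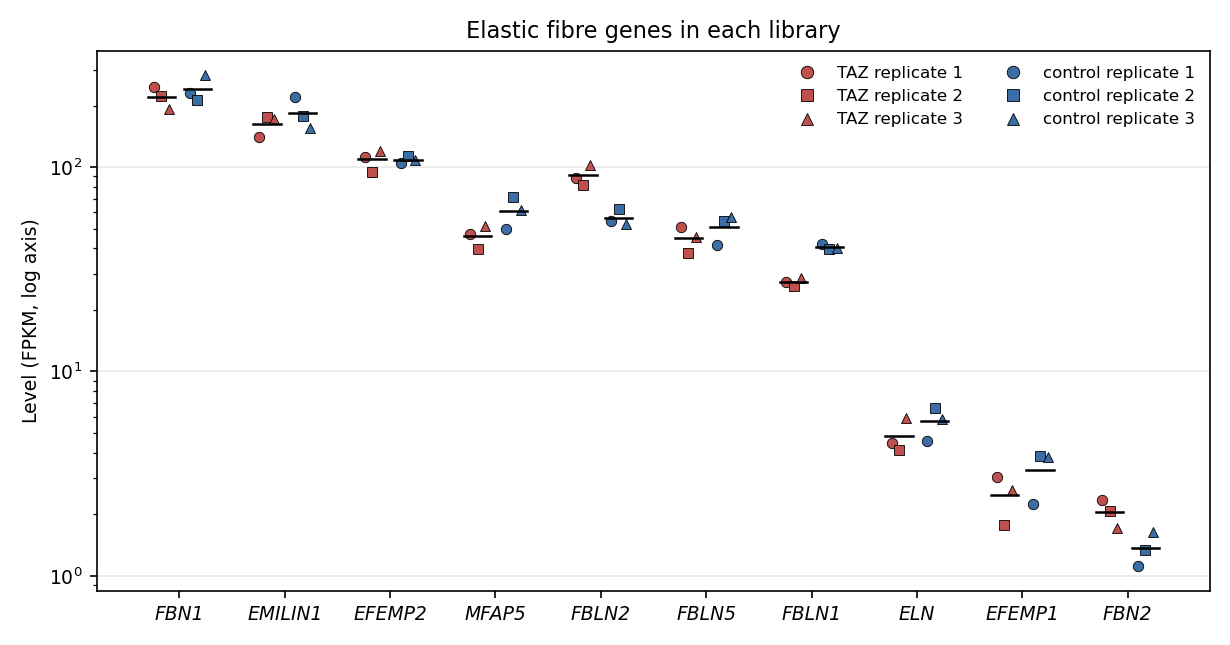
Levels of the 10 elastic fibre genes in FPKM on a log axis, with TAZ libraries in red and control libraries in blue, a symbol for each replicate and a line at each group mean. FBLN2 and FBN2 lie higher and FBLN1 lower in every TAZ library than in any control library, and for the other 7 genes the groups overlap.

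FBN1 and FBN2 encode the fibrillins, the large cysteine-rich glycoproteins that polymerise into the microfibril, with FBN2 best known from embryonic tissue. FBN1 had 247, 223 and 192 FPKM in TAZ replicates 1, 2 and 3, against 230, 212 and 281 FPKM in control replicates 1, 2 and 3. The groups overlapped, and the difference did not pass (221 ± 27.3 against 241 ± 36.0 FPKM, SD, n = 3 each, log2 fold change -0.13, SE 0.12, 95% interval -0.37 to 0.12, limma adjusted p = 0.424). FBN2 was far lower, with 2.36, 2.08 and 1.72 FPKM in TAZ libraries against 1.12, 1.34 and 1.64 FPKM in control libraries. Every TAZ value was above every control value, and TAZ replicate 3 and control replicate 3 lay close together. The group values were 2.05 ± 0.323 FPKM in TAZ libraries and 1.37 ± 0.263 FPKM in control libraries (SD, n = 3 each), a ratio of 1.50, and FBN2 passed as higher (log2 fold change 0.37, SE 0.11, limma adjusted p = 0.0226). Because 1 FPKM is added before the logarithm, that fold change is compressed for so low a gene, and a fit of fragment numbers with limma's voom gave 0.59 (adjusted p = 0.00876).

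FBN2 is long, with a recovered length of 10736 bases, so its low level still rested on 432, 422 and 340.5 fragments in TAZ replicates 1, 2 and 3, against 209.5, 244.5 and 304.5 fragments in control replicates 1, 2 and 3, in steps of 0.5. Counting error at the lowest of these is 6.91%, below the coefficients of variation of 15.7% among TAZ libraries and 19.2% among control libraries. The call of FBN2 was lost without TAZ replicate 1 or 2 or control replicate 1 or 2 (adjusted p = 0.0888, 0.0609, 0.0994 and 0.0541) and with no filter on low genes (adjusted p = 0.0748). Its direction was the same in all of these fits.

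ELN, the gene of tropoelastin itself, was low in both groups. It had 4.47, 4.14 and 5.92 FPKM in TAZ replicates 1, 2 and 3, against 4.59, 6.62 and 5.88 FPKM in control replicates 1, 2 and 3, and the groups overlapped. The means were 4.84 ± 0.949 FPKM in TAZ libraries and 5.70 ± 1.03 FPKM in control libraries (SD, n = 3 each), and the difference did not pass (log2 fold change -0.20, SE 0.14, 95% interval -0.49 to 0.10, limma adjusted p = 0.281). In each library ELN stood at a few hundredths of FBN1, from 1.81% to 3.08% in TAZ libraries and from 1.99% to 3.12% in control libraries. These are transcript levels per length, and elastin protein was not measured.

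MFAP5 encodes a small glycoprotein that sits on fibrillin microfibrils, and EMILIN1 encodes a glycoprotein found where elastin meets the microfibril. MFAP5 had 47.3, 39.9 and 51.5 FPKM in TAZ replicates 1, 2 and 3, against 49.7, 71.6 and 62.0 FPKM in control replicates 1, 2 and 3. TAZ replicate 3 lay above control replicate 1, so the groups overlapped. MFAP5 passed as lower (46.2 ± 5.84 against 61.1 ± 11.0 FPKM, SD, n = 3 each, log2 fold change -0.39, SE 0.13, limma adjusted p = 0.0299). That call was lost without TAZ replicate 2 (adjusted p = 0.124) or control replicate 2 (adjusted p = 0.126), with median-ratio scaling of the libraries (adjusted p = 0.069) and with no filter (adjusted p = 0.14), with the same direction throughout. EMILIN1 had 141, 175 and 172 FPKM in TAZ replicates 1, 2 and 3, against 221, 177 and 156 FPKM in control replicates 1, 2 and 3. The control libraries spanned all but the lowest TAZ library, and EMILIN1 did not pass (163 ± 19.1 against 185 ± 33.6 FPKM, SD, n = 3 each, log2 fold change -0.17, 95% interval -0.44 to 0.09, limma adjusted p = 0.294).

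The short fibulins FBLN5, EFEMP2 (fibulin-4) and EFEMP1 (fibulin-3) share a run of calcium-binding EGF-like domains. FBLN5 and EFEMP2 are needed for elastic fibre assembly in mice, FBLN5 by binding tropoelastin and EFEMP2 by bringing lysyl oxidase to it. FBLN5 had 51.0, 37.9 and 45.3 FPKM in TAZ replicates 1, 2 and 3, against 41.6, 54.6 and 56.7 FPKM in control replicates 1, 2 and 3. These groups overlapped, and the difference did not pass (log2 fold change -0.18, SE 0.13, 95% interval -0.46 to 0.10, limma adjusted p = 0.289). EFEMP2 had 113, 94.8 and 120 FPKM in TAZ replicates 1, 2 and 3, against 105, 114 and 108 FPKM in control replicates 1, 2 and 3. Its group means nearly coincided at 109 ± 12.9 FPKM in TAZ libraries and 109 ± 4.62 FPKM in control libraries (SD, n = 3 each), with a 95% interval for the log2 fold change of -0.21 to 0.21 (limma adjusted p = 1.0). Of the 6 genes that did not pass, EFEMP2 had the narrowest interval.

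EFEMP1 was the lowest of the short fibulins, at 3.03, 1.78 and 2.62 FPKM in TAZ replicates 1, 2 and 3, against 2.26, 3.85 and 3.80 FPKM in control replicates 1, 2 and 3. The control library with the low value fell among the TAZ libraries. EFEMP1 did not pass (2.48 ± 0.634 against 3.30 ± 0.905 FPKM, SD, n = 3 each, log2 fold change -0.30, SE 0.16, 95% interval -0.66 to 0.06, limma adjusted p = 0.17). It passed as lower when control replicate 1 was left out (log2 fold change -0.49, adjusted p = 0.0214). It rested on 87 to 170 fragments per library, fewer than the other 9 genes.

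The long fibulins FBLN1 and FBLN2, which bind fibronectin, fibrillin and other matrix proteins, went in opposite directions. FBLN2 had 88.4, 82.0 and 102.8 FPKM in TAZ replicates 1, 2 and 3, against 54.6, 62.1 and 52.6 FPKM in control replicates 1, 2 and 3. The lowest TAZ library was above the highest control library, and FBLN2 rose to 91.1 ± 10.7 FPKM in TAZ libraries, against 56.4 ± 5.03 FPKM in control libraries (SD, n = 3 each), a ratio of 1.61 (log2 fold change 0.68, SE 0.10, limma adjusted p = 0.000155). FBLN1 had 27.5, 26.3 and 28.7 FPKM in TAZ replicates 1, 2 and 3, against 42.1, 39.6 and 40.0 FPKM in control replicates 1, 2 and 3. The groups did not overlap, and the libraries within each group lay closer together than for any of the other 9 genes, with coefficients of variation of 4.42% among TAZ libraries and 3.37% among control libraries. FBLN1 fell to 27.5 ± 1.21 FPKM in TAZ libraries, against 40.6 ± 1.37 FPKM in control libraries (SD, n = 3 each), a ratio of 0.677 (log2 fold change -0.55, SE 0.082, limma adjusted p = 0.000173). Both calls held in all 15 alternative fits, in the same direction, with log2 fold changes from 0.59 to 0.75 for FBLN2 and from -0.58 to -0.50 for FBLN1.

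**Figure D2:**
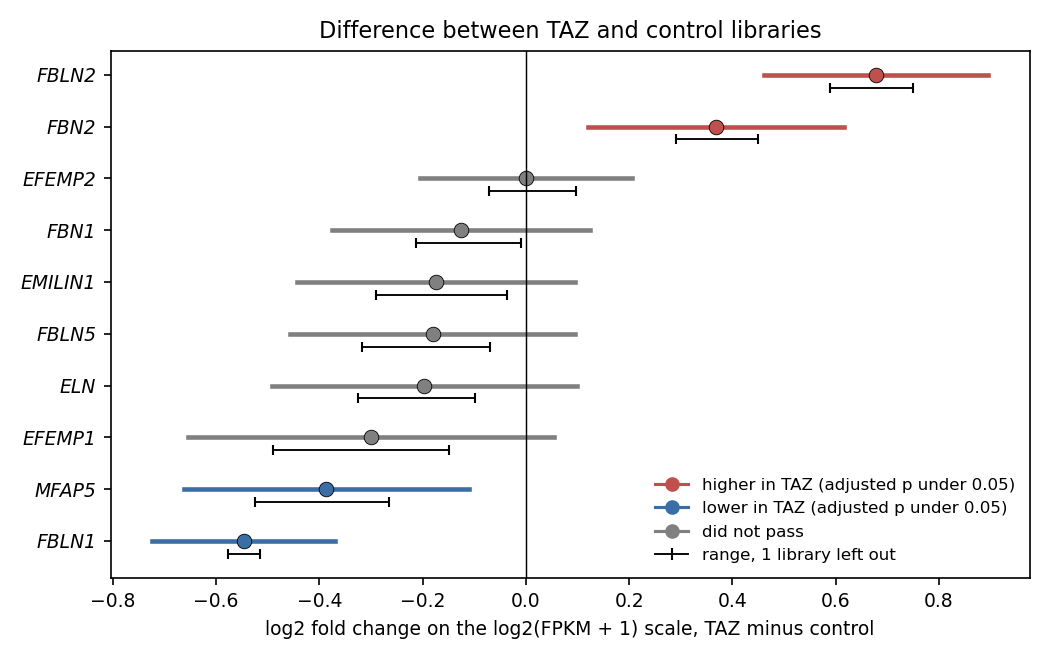
Log2 fold change of each gene, TAZ minus control on the log2(FPKM + 1) scale (points), with its 95% interval from limma (thick lines) and the range when each library was left out in turn (thin lines with end marks). On this scale, which compresses low genes such as FBN2 and EFEMP1, FBLN2 at 0.68 and FBLN1 at -0.55 stand farthest from 0. With voom FBN2 lay at 0.59 and FBLN1 at -0.56. The intervals of the 6 grey genes include 0.

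Ratios between members were taken within each library, since they do not depend on how libraries are scaled. FBLN1 stood at 31.1%, 32.0% and 27.9% of FBLN2 in TAZ replicates 1, 2 and 3, against 77.2%, 63.7% and 76.1% in control replicates 1, 2 and 3. The ratio was 0.42 times as high in TAZ libraries (log2 difference -1.25), with no overlap. FBN2 stood at 0.958%, 0.935% and 0.894% of FBN1 in TAZ replicates 1, 2 and 3, against 0.485%, 0.635% and 0.583% in control replicates 1, 2 and 3. This ratio was 1.65 times as high in TAZ libraries (log2 difference 0.72), again with no overlap, and FBN1 remained the main fibrillin transcript by far in all 6 libraries. For each of these ratios the two-sided exact permutation test gave p = 0.1, the smallest that 3 libraries against 3 allow, and 0.35 when adjusted over the 7 ratios, so neither could pass. The other 5 ratios, ELN, MFAP5 and EMILIN1 over FBN1, EFEMP1 over EFEMP2 and FBLN5 over ELN, overlapped between groups (exact permutation p = 0.3 to 0.9, adjusted p = 0.7 to 0.9).

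**Figure D3:**
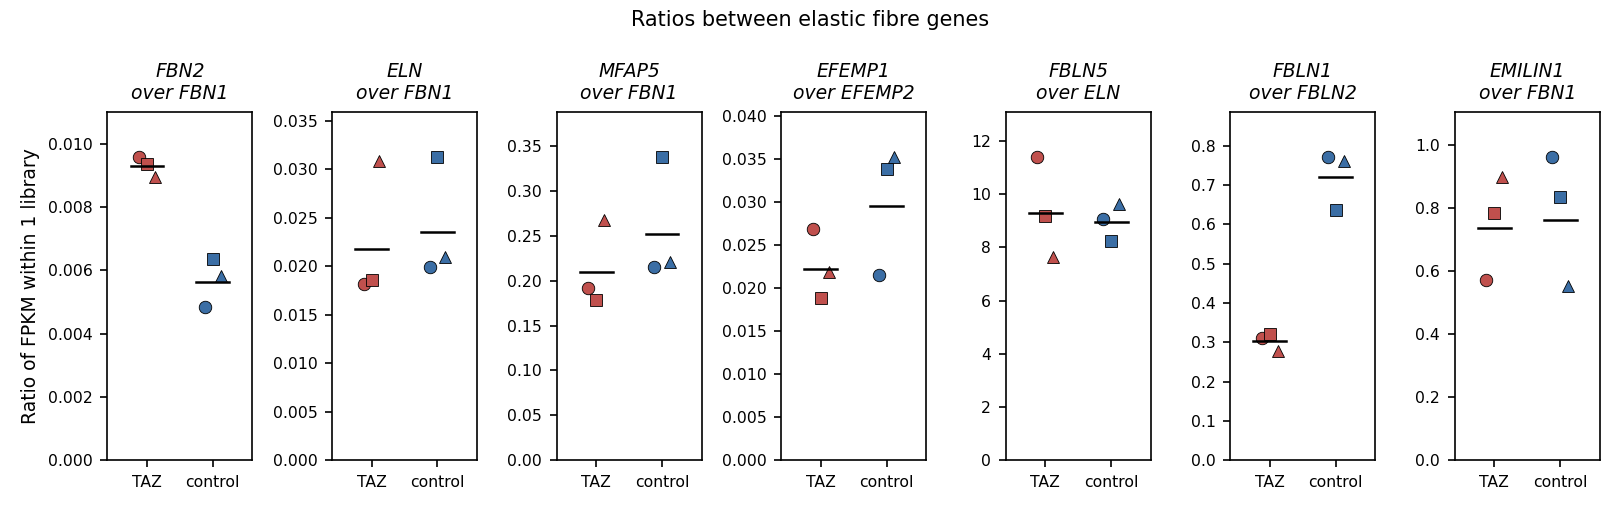
Ratios of FPKM between pairs of elastic fibre genes within each library, on linear axes that start at 0, with TAZ libraries in red, control libraries in blue, a symbol for each replicate and a line at each geometric mean. FBN2 over FBN1 and FBLN1 over FBLN2 separate the groups, and the other 5 ratios overlap.

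By level, FBN1, EMILIN1 and EFEMP2 were the highest of the 10 in both groups, and together they held 67.0% to 71.7% of the summed FPKM in TAZ libraries and 67.7% to 74.0% in control libraries. In TAZ libraries the order by mean FPKM was FBN1, EMILIN1, EFEMP2, FBLN2, MFAP5, FBLN5, FBLN1, ELN, EFEMP1 and FBN2. Neighbours whose ranges overlapped there were EFEMP2 with FBLN2, MFAP5 with FBLN5, and EFEMP1 with FBN2. In control libraries the order was FBN1, EMILIN1, EFEMP2, MFAP5, FBLN2, FBLN5, FBLN1, ELN, EFEMP1 and FBN2, where FBN1 overlapped with EMILIN1 and the run from MFAP5 to FBLN1 overlapped from neighbour to neighbour. FBLN2 thus made up 12.8 ± 1.25% of the summed level in TAZ libraries and 7.49 ± 0.784% in control libraries (SD, n = 3 each). FBN1 ranked above 97.2% of all tested genes in TAZ libraries and 97.3% in control libraries, while ELN ranked above 28.9% and 34.3%.

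Within a group, several of the genes were low in the same library. TAZ replicate 2, which had the highest WWTR1 level, was the lowest of its group for 7 of the 10 genes (ELN, FBLN1, FBLN2, FBLN5, EFEMP1, EFEMP2 and MFAP5) and the highest for EMILIN1. Over all tested genes it was the lowest of its group for 36.4%. Control replicate 1 was the lowest of its group for 6 genes (ELN, FBN2, FBLN5, EFEMP1, EFEMP2 and MFAP5) and the highest for FBLN1 and EMILIN1, and over all tested genes it was the lowest for 27.7%. Control replicate 2 was the highest of its group for 5 genes (ELN, FBLN2, EFEMP1, EFEMP2 and MFAP5), and for 25.4% of all tested genes. In the TAZ group, replicate 3 was the highest for 5 genes (ELN, FBLN1, FBLN2, EFEMP2 and MFAP5), and for 29% of all tested genes. What sets these libraries apart was not tested.

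The other genes of elastic fibre assembly and turnover were taken from 7 lists with 57 symbols, of which 53 were in the tables and 41 were tested. Of these, 12 were higher and 14 lower in TAZ libraries and 15 did not pass, a share called of 63.4%, against 37.9% of all tested genes. FBLN7, CTSS and ITGA8 passed the filter only through the group in which they were high, and without these 3 genes 11 of 38 were higher and 12 lower, a share called of 60.5%. The lists were drawn up with earlier results of these data known, and the difference in share was not tested. The median log2 fold change of the 41 genes was -0.09, against -0.05 for all tested genes.

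Among the other microfibril and elastic fibre components, 2 of 7 tested genes were higher and 4 lower, or 2 and 3 of 6 without FBLN7. For comparison, 15.7% of all tested genes were higher and 22.1% lower. MFAP4, which encodes a fibrinogen-related protein that binds tropoelastin and fibrillin, had 9.45, 8.60 and 11.5 FPKM in TAZ replicates 1, 2 and 3, against 17.2, 26.7 and 19.2 FPKM in control replicates 1, 2 and 3. It fell to 0.468 times the control level (log2 fold change -1.01, SE 0.15, limma adjusted p = 0.000125). MFAP2, the close relative of MFAP5, fell to 151 ± 15.6 FPKM in TAZ libraries, against 217 ± 25.5 FPKM in control libraries (SD, n = 3 each, log2 fold change -0.52, adjusted p = 0.00161). FBLN7, a further fibulin, had 0.767 ± 0.0697 FPKM in TAZ libraries and 1.23 ± 0.273 FPKM in control libraries (SD, n = 3 each, limma adjusted p = 0.0267). All of its TAZ values were under 1 FPKM, so it was tested only because all 3 control libraries met the filter, and with no filter it did not pass (adjusted p = 0.0538). HMCN1, which encodes the very large fibulin-related protein hemicentin, was also lower (9.31 ± 1.91 against 13.4 ± 3.18 FPKM, SD, n = 3 each, limma adjusted p = 0.027), and EMILIN2 was higher (26.4 ± 1.44 against 19.8 ± 5.78 FPKM, SD, n = 3 each, limma adjusted p = 0.0352). The calls of FBLN7, HMCN1 and EMILIN2 depended on single libraries. That of FBLN7 was lost without TAZ replicate 1 or 2 (adjusted p = 0.07 and 0.0758), that of HMCN1 without TAZ replicate 2 or 3 or control replicate 3 (adjusted p = 0.105, 0.0641 and 0.0738), and that of EMILIN2 without TAZ replicate 2 or 3 or control replicate 2 or 3 (adjusted p = 0.0978, 0.0557, 0.136 and 0.0759).

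The latent TGF-beta binding proteins, fibrillin relatives of which some, but not all, attach latent TGF-beta to microfibrils, split between directions. LTBP3 had 11.19, 11.18 and 11.23 FPKM in TAZ replicates 1, 2 and 3, against 38.9, 27.9 and 28.4 FPKM in control replicates 1, 2 and 3. It fell to 0.353 times the control level, with no overlap (log2 fold change -1.41, SE 0.12, limma adjusted p = 7.78e-07). LTBP1 had 63.5, 59.5 and 54.2 FPKM in TAZ replicates 1, 2 and 3, against 34.5, 26.7 and 36.4 FPKM in control replicates 1, 2 and 3, and was 1.82 times as high (log2 fold change 0.85, SE 0.11, adjusted p = 6.31e-05). LTBP2 was lower (100.2 ± 6.23 against 132 ± 18.1 FPKM, SD, n = 3 each, limma adjusted p = 0.00882), and LTBP4 did not pass (7.59 to 8.49 FPKM in TAZ libraries against 6.46 to 7.74 FPKM in control libraries, adjusted p = 0.129).

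Of the 4 tested lysyl oxidases, the copper enzymes that crosslink elastin and collagen, LOXL2 rose and LOX fell. LOXL2 had 292, 306 and 303 FPKM in TAZ replicates 1, 2 and 3, against 130, 171 and 157 FPKM in control replicates 1, 2 and 3 (ratio 1.97, log2 fold change 0.98, limma adjusted p = 5.14e-06). LOX had 71.7, 45.5 and 63.1 FPKM in TAZ replicates 1, 2 and 3, against 65.1, 97.9 and 106.8 FPKM in control replicates 1, 2 and 3, with an overlap between groups (log2 fold change -0.57, adjusted p = 0.0238). The LOX call was lost without TAZ replicate 2 or control replicate 2 or 3 (adjusted p = 0.105, 0.0669 and 0.052). LOXL1, which in mice is needed to renew elastic fibres, averaged 441 ± 34.7 FPKM in TAZ libraries and 534 ± 65.7 FPKM in control libraries (SD, n = 3 each) and missed the threshold (limma adjusted p = 0.0515), but passed as lower without TAZ replicate 3 or control replicate 3 (adjusted p = 0.0355 and 0.00641). LOXL3 did not pass (4.93 ± 0.508 against 4.17 ± 0.215 FPKM, SD, n = 3 each, limma adjusted p = 0.142).

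**Figure D4:**
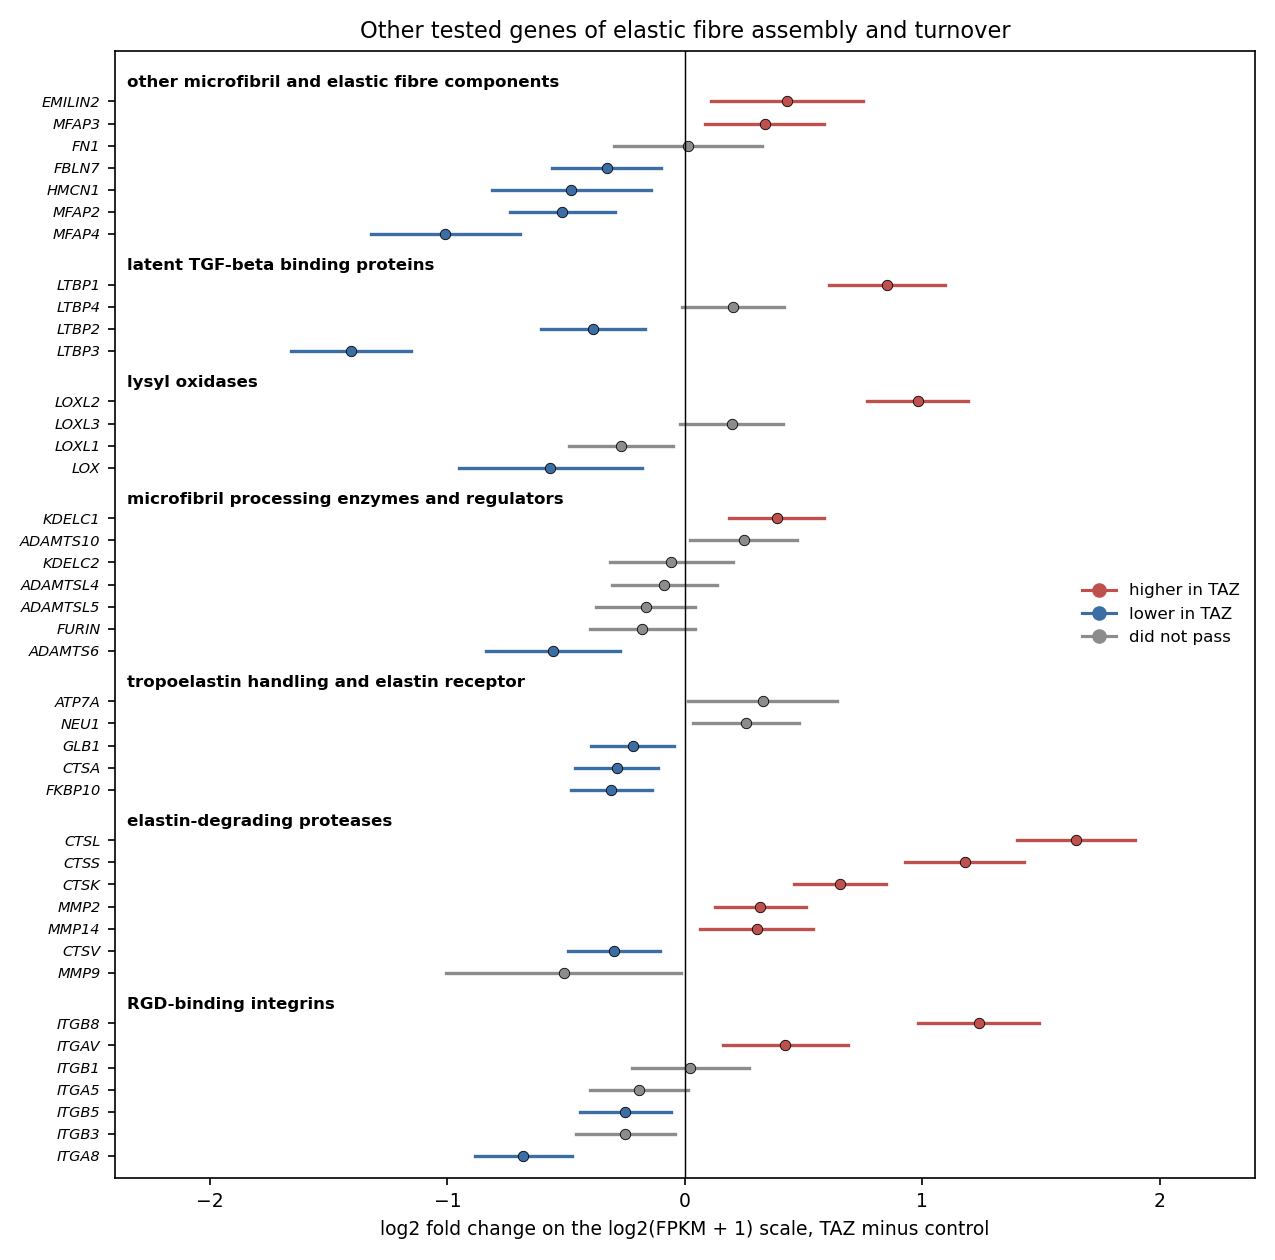
Log2 fold change of the 41 tested genes in the 7 lists of elastic fibre assembly and turnover, TAZ minus control on the log2(FPKM + 1) scale, with 95% intervals from limma. Every list holds called genes in both directions, except the genes of tropoelastin handling and the elastin receptor. There 3 were lower and 0 higher, but 1 was higher in several alternative fits, among them median-ratio scaling (2 lower). On this scale, which compresses low genes, CTSL lies at 1.65, ITGB8 at 1.24 and CTSS at 1.18.

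Among enzymes and regulators of the microfibril, 1 of 7 tested genes was higher and 1 lower. Of all tested genes, 15.7% were higher and 22.1% lower. ADAMTS6, a metalloprotease of the family that acts on fibrillin microfibrils, fell to 4.72 ± 0.819 FPKM in TAZ libraries, against 7.42 ± 1.24 FPKM in control libraries (SD, n = 3 each, limma adjusted p = 0.00477). KDELC1 (also POGLUT2), which adds glucose to EGF-like domains, rose to 15.6 ± 1.11 FPKM in TAZ libraries, against 11.7 ± 0.632 FPKM in control libraries (SD, n = 3 each, limma adjusted p = 0.00514). FURIN, the protease that trims profibrillin, and ADAMTS10 did not pass (adjusted p = 0.192 and 0.0798). Of the 5 genes for handling tropoelastin and for the elastin receptor, limma called 0 higher and 3 lower. At an unadjusted limma p under 0.05, 2 were higher (NEU1 and ATP7A). With median-ratio scaling 1 was higher and 2 lower. A count of 1 higher was also found with the replicate number as a block and without TAZ replicate 1 or 3 or control replicate 3. The count of lower genes fell to 1 with that block and without TAZ replicate 1 or control replicate 1. FKBP10, an endoplasmic reticulum chaperone of collagen and tropoelastin, fell to 285 ± 9.96 FPKM in TAZ libraries, against 353 ± 17.6 FPKM in control libraries (SD, n = 3 each, limma adjusted p = 0.00793). CTSA and GLB1, lysosomal genes whose products also serve in the elastin receptor complex, were 0.817 and 0.856 times as high (adjusted p = 0.0137 and 0.0467). NEU1, the third gene of that complex, did not pass (adjusted p = 0.0671). The CTSA call was lost without TAZ replicate 1 or control replicate 1 (adjusted p = 0.0577 and 0.0608), that of GLB1 without any library other than control replicate 2 (adjusted p = 0.0824 to 0.15), and NEU1 passed as higher without TAZ replicate 1 (adjusted p = 0.0464).

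Of 7 tested proteases that can degrade elastin, 5 were higher and 1 lower, where 15.7% of all tested genes were higher. Without CTSS, which passed the filter only through the TAZ libraries, 4 of 6 were higher. With no filter, where CTSS still passed, the count of higher genes was 3. Without TAZ replicate 1 or 2 it was also 3, and without TAZ replicate 3 it was 4. In these fits with a TAZ library left out CTSS no longer met the filter, which is only part of the fall to 3. CTSL, a cysteine cathepsin, had 11.5, 12.1 and 11.3 FPKM in TAZ replicates 1, 2 and 3, against 3.43, 2.37 and 3.38 FPKM in control replicates 1, 2 and 3 (ratio 3.80, log2 fold change 1.65, limma adjusted p = 1.31e-07). CTSS, a cathepsin best known from antigen-presenting cells, had 2.85, 2.30 and 2.87 FPKM in TAZ replicates 1, 2 and 3, against 0.436, 0.866 and 0.587 FPKM in control replicates 1, 2 and 3 (ratio of the means 4.25, log2 fold change 1.18, limma adjusted p = 4.29e-06). The fold change of so low a gene is compressed by the added 1 FPKM, and voom gave CTSS 2.11. With no filter its adjusted p was 0.00197. The groups of CTSL did not overlap. Those of CTSS could not, since it was tested only because all 3 TAZ libraries, and no control library, met the filter. CTSK, a strong collagenase and elastase, rose to 660 ± 18.7 FPKM in TAZ libraries, against 420 ± 41.4 FPKM in control libraries (SD, n = 3 each, limma adjusted p = 8.01e-05), and MMP2, gelatinase A, to 2231 ± 11.7 FPKM, against 1794 ± 163 FPKM in control libraries (adjusted p = 0.0132). CTSV was lower (37.6 ± 3.54 against 46.3 ± 1.42 FPKM, SD, n = 3 each, limma adjusted p = 0.0191), a call lost without TAZ replicate 2 or control replicate 1 (adjusted p = 0.0892 and 0.0527). MMP7 was at 0 in all 6 libraries.

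Cells hold fibrillin, fibulins and latent TGF-beta through the RGD-binding integrins. Of 7 tested integrin subunits 2 were higher and 2 lower, or 2 and 1 of 6 without ITGA8. The shares of all tested genes were 15.7% higher and 22.1% lower. ITGB8 had 17.6, 14.2 and 13.9 FPKM in TAZ replicates 1, 2 and 3, against 5.20, 5.60 and 6.86 FPKM in control replicates 1, 2 and 3, and was 2.59 times as high (log2 fold change 1.24, limma adjusted p = 3.04e-06). The gene of its partner subunit, ITGAV, had a ratio of 1.34 (adjusted p = 0.0156), which was lost without TAZ replicate 1 or control replicate 2 (adjusted p = 0.0604 and 0.0676). ITGA8 had 0.729 ± 0.113 FPKM in TAZ libraries and 1.77 ± 0.0682 FPKM in control libraries (SD, n = 3 each, limma adjusted p = 9.34e-05). It too was tested only because all 3 control libraries met the filter, and with no filter its adjusted p was 0.00127. ITGB5 had a ratio of 0.836 (adjusted p = 0.0399), which was lost without any library other than control replicate 3 (adjusted p = 0.0565 to 0.176).

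Elastic fibre genes are also expressed by smooth muscle and contractile stromal cells, and contractile markers differed between the groups. Of 8 smooth muscle markers 5 were tested, of which 4 were lower and 1, CNN1, was higher in TAZ libraries. Over all tested genes 22.1% were lower and 15.7% higher. ACTA2, smooth muscle actin, had 207, 151 and 227 FPKM in TAZ replicates 1, 2 and 3, against 334, 559 and 433 FPKM in control replicates 1, 2 and 3. The summed level of the list was 762 to 925 FPKM in TAZ libraries and 1293 to 1779 FPKM in control libraries, with MYH11, smooth muscle myosin, at or below 0.147 FPKM in all 6. The part of these differences in the results for MFAP5, FBLN1 and FBLN2 was not tested. Endothelial markers summed to 0.137 to 0.316 FPKM in TAZ libraries and 0.336 to 0.533 FPKM in control libraries over 6 measured genes, with KDR at 0 throughout. Epithelial markers summed to 1.18 to 1.80 FPKM in TAZ libraries and 1.52 to 2.16 FPKM in control libraries over 8 genes. Among 8 leukocyte markers PTPRC was at 0 in all libraries, and the list summed to 26.7 to 27.8 FPKM in TAZ libraries and 13.6 to 16.7 FPKM in control libraries, mostly CD14, which was higher (24.2 ± 0.421 against 9.58 ± 1.38 FPKM, SD, n = 3 each, limma adjusted p = 6.8e-07). CD68, the other leukocyte marker tested, was lower (2.86 ± 0.333 against 4.53 ± 0.437 FPKM, SD, n = 3 each, limma adjusted p = 0.00185). CD3E and CD79A, which were too low to be tested, had less in every TAZ library than in any control library (0.0769 against 0.598 FPKM and 0.0142 against 0.215 FPKM on average). CD3E rested on 3.5, 0.5 and 1.5 fragments in TAZ libraries and on 13.5, 12.5 and 16 in control libraries. CD79A rested on 0, 0.5 and 0.5 against 7, 3 and 4 fragments. Over all tested genes 28.7% had every TAZ library below. The share among genes too low to be tested, such as CD3E and CD79A, was not computed. Among the untested endothelial and epithelial markers, PECAM1, CDH1 and KRT14 also lay below, and VWF and EPCAM lay above.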

How the data were processed

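RNA sequencing of 3 TAZ and 3 control libraries was analysed. Total RNA from TRIzol went into VAHTS Universal V6 libraries, per the labels' protocols. The tools fastp, HISAT2 and HTSeq stand in the submitters' processing notes, without versions. The authors deposited FPKM values per gene, per the file headers, in a table for each group. No source used here states the genome build, the strand setting or how reads shared between genes were handled. Coordinates are therefore left out, and genes with close paralogs are uncertain. Each table had 16285 rows, of which 23 held a date in place of a symbol and were left out.

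Library totals, gene lengths and fragment numbers were recovered from the steps of the values (smallest length that gave multiples of 0.5 fragments within 0.02 in all libraries). Counting errors cover counting only. Genes with at least 1 FPKM in at least 3 libraries were tested on log2(FPKM + 1) with limma 3.58.1 in R 4.3.3 (mean-variance trend, two-sided, Benjamini-Hochberg over 10750 genes, threshold 0.05). Ratios were compared by exact permutation. No label says that replicates were separate cultures, so the p-values reflect only library-to-library spread, possibly technical. Fragment numbers differed between all pairs beyond sampling noise (chi-square per degree of freedom 9.46 or more). The members and lists were chosen with earlier results of these data known. The text names WWTR1, all 10 members, and in each pathway list the 4 tested genes with the lowest adjusted p plus the leading gene in the less frequent direction. ATP7A and MMP7 were named outside this rule. CD14, ACTA2 and other markers were named after their values were seen. The counts of pathway genes without those that passed the filter through 1 group only were added after seeing the data. Alternatives were other pseudocounts, filters, scalings and variance models, voom, a replicate block and leaving out each library.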

Additional observations from a re-analysis of the deposited data

How the results depend on the processing

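FBLN2 stayed higher and FBLN1 lower, past the threshold, in all 15 alternative fits. The count of members that were higher was 1 in place of 2 with no filter and with the stricter filter (mean of 5 FPKM or more), which drops FBN2 and EFEMP1, and 1 to 2 when a library was left out. The count of members that were lower was 1 in place of 2 with no filter and with median-ratio scaling, and 1 to 3 when a library was left out. With no filter, 7 pathway genes were higher and 8 lower in place of 12 and 14, and with a library left out 8 to 12 were higher and 8 to 12 lower. Except where the filter itself removed genes, the cause was not tested. Over all genes, median-ratio scaling gave 2001 higher and 1821 lower in place of 1693 and 2381, a share of higher calls of 52.4% in place of 41.6%, and left the direction of 9 of the 10 members as it was. The log2 fold change of EFEMP2, which lay at 0.00, turned to 0.052 with median-ratio scaling and ran from -0.071 to 0.097 with a library left out. With a library left out, the log2 difference of ELN over FBN1 ran from -0.36 to 0.10, of FBLN5 over ELN from -0.10 to 0.19 and of EMILIN1 over FBN1 from -0.28 to 0.14, on both sides of 0, while FBN2 over FBN1 ran from 0.61 to 0.80 and FBLN1 over FBLN2 from -1.34 to -1.19. With the replicate number as a block, 2 members were higher and 2 lower, as without it, and 1548 genes were higher and 1964 lower. The values did not show a pairing by number. Deviations from the group means correlated at -0.436, -0.112 and -0.403 between libraries of the same number, and no library correlated best with its own number. Such deviations cancel out within each group for every gene, so these correlations depend on each other, and they were not tested. Correlations were 0.691 for TAZ replicate 1 with control replicate 3, 0.534 for TAZ replicate 2 with control replicate 1 and 0.552 for TAZ replicate 3 with control replicate 2. No label ties these libraries, and no fit used such pairs. In that block fit the calls of CTSA, GLB1 and ITGB5 were lost (adjusted p = 0.0542, 0.158 and 0.104). Among the pathway genes named, the calls of LTBP2, ADAMTS6 and MMP2 were lost with no filter alone (adjusted p = 0.0521, 0.0514 and 0.0731), and so, with no filter, were those of FBLN7, HMCN1, EMILIN2, LOX, ITGAV and ITGB5. GLB1 did not pass in 10 of the 15 alternatives and ITGB5 in 9, among them median-ratio scaling (adjusted p = 0.128 and 0.106) and no mean-variance trend (adjusted p = 0.0684 and 0.0552), with GLB1 lost also with quantile normalization (adjusted p = 0.0591) and voom (adjusted p = 0.0535). With median-ratio scaling NEU1 and ADAMTS10 passed as higher (adjusted p = 0.0397 and 0.0443). LOXL1 passed as lower with quantile normalization (adjusted p = 0.0187) and with voom (adjusted p = 0.047). Depth limits EFEMP1 most, where counting error at the lowest library is 10.7%.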
